A study of Mus musculus with 10 samples.

Results

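The lysyl oxidase family comprised 5 of the 54532 genes in the deposited expression table, Lox, Loxl1, Loxl2, Loxl3 and Loxl4, taken by gene symbol. These genes were chosen with earlier results of these data known. They were followed in whole lungs of wild-type C57/BL6 mice, 5 lungs in the group with increased pulmonary blood flow (the IncPBF group) and 5 sham-operated lungs (the sham group). In the IncPBF group, a fistula had been made on postnatal day 7 (P7) by puncturing from the abdominal aorta into the inferior vena cava, which shunts arterial blood to the right heart and lungs. The sham group had the same anesthesia and laparotomy without the puncture. All pups were breastfed, pups of either sex were used according to the study's methods, and the lungs were collected on P14 for bulk RNA-sequencing. Levels are given in FPKM, a count of fragments scaled to the length of the gene and the size of the library. Between genes, levels are compared per length only. Bulk RNA pools every cell of the lung, and fewer cells of a type and less RNA per cell cannot be told apart.

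Lysyl oxidases are secreted, copper-dependent amine oxidases that turn lysine side chains of elastin and collagen into aldehydes, from which the cross-links of these fibers form. Lox and Loxl1 are closely related and act mainly in elastic fibers and fibrillar collagen, and Loxl1 also takes part in the renewal of elastic fibers. Loxl2, Loxl3 and Loxl4 carry scavenger receptor cysteine-rich domains ahead of the same catalytic region, and Loxl2 also cross-links collagen IV of basement membranes. In the lung the alveolar stage covers the weeks after birth, when elastin is laid down at the tips of the growing septa.

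The part of these enzymes that all family members share is the copper-binding stretch of the catalytic region, in which histidines hold the metal. It is shown because it is the hallmark by which the members are recognized as 1 enzyme family, and because its coding sequence shows how far their reads can be told apart. Each line gives 33 bases of coding sequence, 5′ to 3′, from GENCODE M21 transcripts on GRCm38, with the histidine codons in capitals.
Loxl1 (chromosome 9, minus strand, residues 476 to 486): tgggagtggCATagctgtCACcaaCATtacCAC
Loxl2 (chromosome 14, plus strand, residues 622 to 632): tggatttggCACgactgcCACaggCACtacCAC
Loxl3 (chromosome 6, plus strand, residues 602 to 612): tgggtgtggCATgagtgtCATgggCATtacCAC
Loxl4 (chromosome 19, minus strand, residues 607 to 617): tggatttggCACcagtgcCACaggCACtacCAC
Loxl2 and Loxl4 differed at 2 of these bases, Loxl1 and Loxl4 at 12, and the other pairs at 8 to 11.

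The same stretch lies at residues 280 to 290 of Lox, whose protein has 411 residues against 607 in Loxl1, 776 in Loxl2, 754 in Loxl3 and 758 in Loxl4. Over the last 200 residues, which hold the catalytic region, Lox and Loxl1 were 75% identical. Loxl2, Loxl3 and Loxl4 were 66.5 to 70.2% identical to each other there, and pairs across the 2 branches 50.6 to 57.3%. The longest run of coding bases shared by any pair of members was 32 bases, between Lox and Loxl1, and no stretch of 50 bases was shared between members.

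The lungs differed in sex-linked expression, and the difference went largely with the groups. Xist, which is made from the silenced X, had 52.4 to 66.5 FPKM in IncPBF lungs 2 to 5, 0.0144 FPKM in IncPBF lung 1 and 0.00640 to 0.0770 FPKM among sham lungs. Ddx3y, a gene on the Y, had at most 0.00926 FPKM in IncPBF lungs 2 to 5, 18.6 FPKM in IncPBF lung 1 and 21.8 to 24.6 FPKM in the sham lungs. By both genes, IncPBF lungs 2 to 5 read as female, and IncPBF lung 1 and all sham lungs as male. Sex by these genes thus went largely with the groups. IncPBF lung 1 is therefore the single lung of its group with sham-like levels of both genes, and its values are followed below. Totals of fragments on genes ran from 16103423 to 20318525 in the IncPBF group, against 18171494 to 19400575 for sham. The labels give no litter, surgery date or sequencing batch, and p-values measure the spread between these lungs.

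All 5 members differed between the groups, Loxl1, Loxl2 and Loxl3 upregulated and Lox and Loxl4 downregulated in the IncPBF group. In limma (linear models with moderated variances) on log2(FPKM + 0.1), 5 of 5 members had an adjusted p under 0.05, against 32.3% of the 15388 genes tested, and none of the 5 kept it with log2 Xist as a covariate. Of the members, 3 were higher and 2 lower, beside 16.1% and 16.2% of all genes. For each of the 5 the lungs of the groups did not overlap. For 3 the lowest IncPBF lung exceeded the highest sham lung, against 12% of all genes, and for 2 the reverse held, against 11.2%. The exact two-sided permutation test gave p = 0.00794 for each member, the smallest that the possible assignments of the lungs allow. The median log2 fold change of all genes tested was 0.01, which describes the scaling of the lungs and not how many genes changed.

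**Figure D1:**
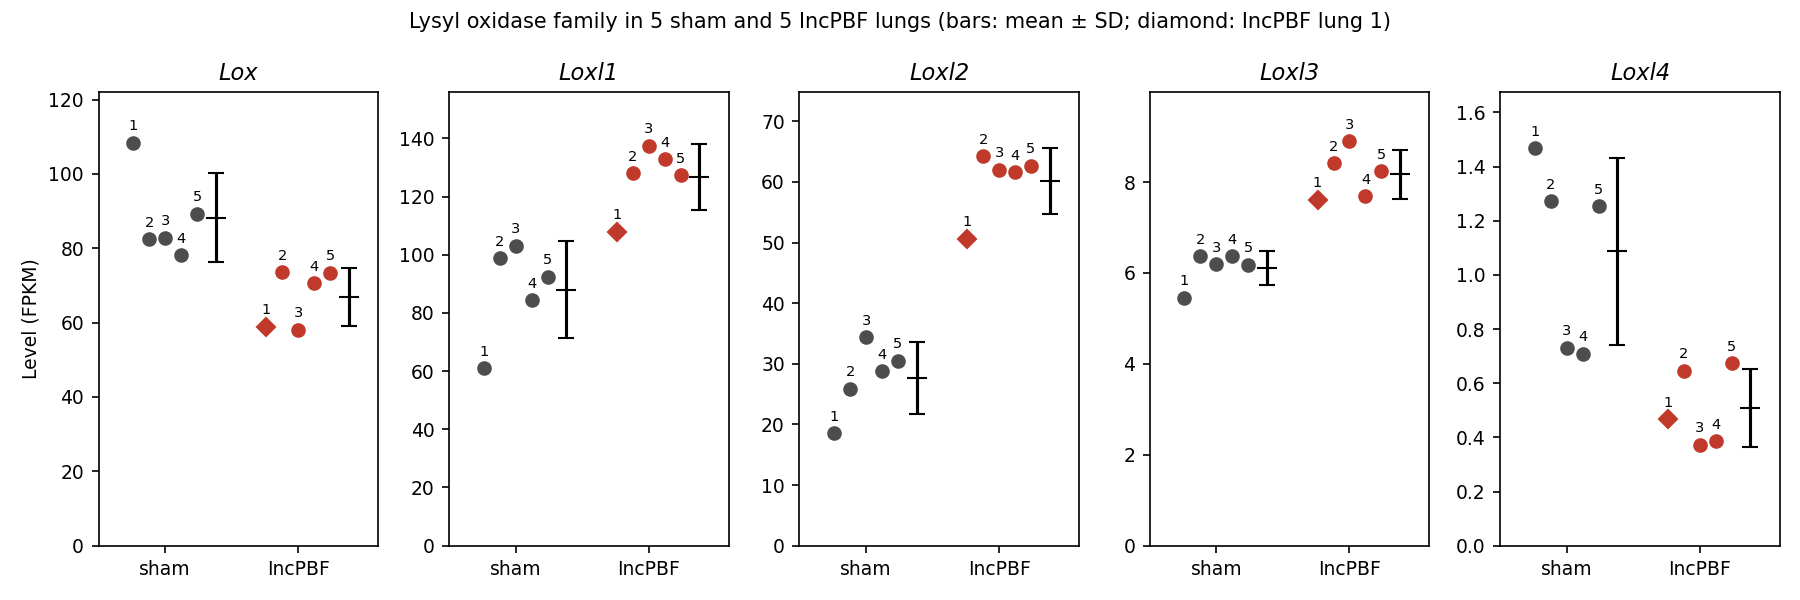
FPKM (vertical axis, from 0, a separate scale for each gene) of the 5 lysyl oxidase genes in each sham lung (gray) and each IncPBF lung (red), numbered 1 to 5, with the mean ± SD of each group as bars. IncPBF lung 1, with sham-like Xist, is drawn as a diamond, and in every panel the lungs of one group lie wholly above those of the other, from 50.7 to 64.2 against 18.5 to 34.4 FPKM in Loxl2.

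Lox, the founding member and a main cross-linker of elastin, lies on the minus strand of chromosome 18 of GRCm38 (52516069 to 52529867, ENSMUSG00000024529). It measured 58.8, 73.6, 58.1, 70.6 and 73.5 FPKM in IncPBF lungs 1 to 5 and 108, 82.5, 82.8, 78.1 and 89.3 FPKM in sham lungs 1 to 5. The 2 lowest lungs of all were IncPBF lungs 1 and 3, sham lung 1 was far above the rest, and the nearest lungs across the groups were 73.6 and 78.1 FPKM. The mean fell from 88.2 ± 12.0 to 66.9 ± 7.80 FPKM (SD, n = 5 per group), or -0.40 on the log2 scale (standard error 0.10, 95% interval -0.62 to -0.17, adjusted p = 0.0128 in limma). In absolute size 23.9% of the tested genes changed more. Lox rested on 5166 to 9362 fragments per lung and shared no stretch of 50 bases with another gene. Its length in the table, 4810 bases, differs from the 4778 exonic bases of GENCODE M21, which does not affect a comparison between lungs.

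Loxl1 (chromosome 9 from 58287738 to 58313186, minus strand, ENSMUSG00000032334), the elastic fiber paralog, went the other way. Its levels were 108, 128, 137, 133 and 127 FPKM in IncPBF lungs 1 to 5 and 61.0, 98.7, 103, 84.3 and 92.4 FPKM in sham lungs 1 to 5. Sham lung 1, the lung with the highest Lox, had the lowest Loxl1 by a wide margin, and IncPBF lung 1 was only just above the highest sham lung. The mean rose from 87.9 ± 16.6 to 127 ± 11.3 FPKM, or 0.54 on the log2 scale (standard error 0.13, 95% interval 0.26 to 0.83, adjusted p = 0.00882 in limma). By mean level Loxl1 stood at percentile 98.0 of the tested genes and Lox at 96.9, so both belong to the abundant RNAs of the P14 lung.

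Loxl2, whose enzyme acts on fibrillar collagen and collagen IV, showed the largest log2 fold change in the family in the fit over all 10 lungs without a covariate. With log2 Xist as a covariate Loxl4 changed more (-0.95 against 0.89), as it did in IncPBF lung 1 against the sham lungs (-1.01 against 0.90). The gene lies on the plus strand of chromosome 14 (69609068 to 69695834, ENSMUSG00000034205) and has 14 exons in its longest transcript. It measured 50.7, 64.2, 62.0, 61.6 and 62.7 FPKM in IncPBF lungs 1 to 5 against 18.5, 25.9, 34.4, 28.8 and 30.5 FPKM in sham lungs 1 to 5. The lowest IncPBF lung was lung 1, still well above the highest sham lung. The mean rose from 27.6 ± 5.94 to 60.2 ± 5.44 FPKM, 2.18-fold, or 1.15 on the log2 scale (standard error 0.14, 95% interval 0.84 to 1.46, adjusted p = 0.000197 in limma). Of all genes tested, 2.96% changed more in absolute size.

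A part of the Loxl2 transcript is not unique. Of its 5356 distinct stretches of 50 bases, 2411 (45.0%) also occurred in other genes, 2299 of them in Gm21451, an unprocessed pseudogene on the same chromosome. Gm21451 was 0.839 to 1.19 FPKM in the IncPBF lungs against 0.261 to 0.459 FPKM for sham, with a log2 fold change of 1.22 (adjusted p = 0.000755 in limma), in the same direction as Loxl2. How the authors' counting divided reads between the copies is not given in the sources used here. The level of Loxl2 beside other genes, and so its share of the family and its ratios, rests on that division. The fragments on Gm21451 amounted to 0.544 to 0.953% of those on Loxl2, and with them added the log2 difference of Loxl2 was 1.15, with no overlap of the groups (p = 0.00794, exact permutation test). Loxl2 also overlaps 301 exonic bases of the antisense gene Gm27177, which averaged 0.0156 FPKM.

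Loxl3, a collagen cross-linker needed in palate and spine development, was much scarcer than Lox. It lies on the plus strand of chromosome 6 (83034173 to 83052562, ENSMUSG00000000693). Its levels were 7.61, 8.42, 8.90, 7.69 and 8.23 FPKM in IncPBF lungs 1 to 5 and 5.46, 6.36, 6.19, 6.36 and 6.18 FPKM in sham lungs 1 to 5. The sham lungs other than lung 1 were within a narrow band, and the IncPBF lungs lay clear of it. The mean rose from 6.11 ± 0.375 to 8.17 ± 0.535 FPKM, or 0.41 on the log2 scale (standard error 0.06, 95% interval 0.27 to 0.55, adjusted p = 0.000759 in limma). Exons of Loxl3 overlap Htra2, a mitochondrial protease gene on the opposite strand, by 535 exonic bases, and whether the counting used strand is not given in the sources used here. Htra2 was 7.43 ± 0.570 FPKM in the IncPBF group against 6.80 ± 0.352 FPKM for sham (log2 fold change 0.12, adjusted p = 0.175 in limma). At even coverage, the share of Htra2 in this overlap equals 9.14 to 13.6% of the fragments on Loxl3, and with it taken out the log2 difference of Loxl3 was 0.45, with no overlap of the groups (p = 0.00794, exact permutation test).

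Loxl4 (chromosome 19 from 42593982 to 42612813, minus strand, ENSMUSG00000025185) was the scarcest member, at percentile 8.31 of the tested genes, on 28 to 111 fragments per lung. It measured 0.467, 0.646, 0.373, 0.385 and 0.674 FPKM in IncPBF lungs 1 to 5 and 1.47, 1.27, 0.731, 0.708 and 1.25 FPKM in sham lungs 1 to 5. The sham lungs fell into a higher set of 3 and a lower set of 2, and the lower sham lungs were only slightly above the highest IncPBF lung. The mean fell from 1.09 ± 0.346 to 0.509 ± 0.143 FPKM, or -0.94 on the log2 scale (standard error 0.25, 95% interval -1.49 to -0.39, adjusted p = 0.0145 in limma). This fold is on the scale with 0.1 FPKM added, which understates the change of a gene at this level, and the ratio of the means was 0.468.

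The order of the levels was Loxl1, Lox, Loxl2, Loxl3 and Loxl4 by the mean of the IncPBF lungs, while Lox and Loxl1 had similar means in the sham lungs. Lox and Loxl1 were 88.2 ± 12.0 and 87.9 ± 16.6 FPKM there, and Lox and Loxl2 were 66.9 ± 7.80 and 60.2 ± 5.44 FPKM in the IncPBF group. Both genes of a pair were measured in the same lungs, so these SDs are not the spread of their difference. Loxl1 was above Lox in 5 of 5 IncPBF lungs and 4 of 5 sham lungs, sham lung 1 being the exception. Lox was above Loxl2 in 4 of 5 IncPBF lungs and 5 of 5 sham lungs. All other neighbors kept their order in each of the 10 lungs.

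The makeup of the family by FPKM also went with the groups, given here as values with no test. Lox accounted for 42.1 ± 7.72% of the summed level of the 5 genes in the sham lungs (36.5 to 55.7%) and 25.5 ± 2.12% in the IncPBF lungs (21.8 to 26.98%). Loxl2 accounted for 13.0 ± 2.28% in the sham lungs (9.50 to 15.1%) and 22.9 ± 0.401% in the IncPBF lungs (22.5 to 23.4%). The share of Loxl1 was 41.5 ± 5.93% against 48.3 ± 2.00%, that of Loxl3 2.90 ± 0.193% against 3.12 ± 0.232%, and that of Loxl4 0.519 ± 0.179% against 0.194 ± 0.0512%, sham first. Of the 5 shares, that of Loxl3 alone overlapped between the groups.

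Summed over the family, the level was 195 to 227 FPKM in the sham lungs and 225 to 275 FPKM in the IncPBF lungs, which overlapped at IncPBF lung 1. Lox and Loxl1 together were 176 ± 9.82 FPKM in the sham group and 194 ± 15.3 FPKM in the IncPBF group, also with overlap. The opposite changes of these 2 genes thus partly offset each other in their sum. Loxl2, Loxl3 and Loxl4 together went from 34.8 ± 5.96 to 68.9 ± 5.83 FPKM without overlap, nearly all of it Loxl2.

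**Figure D2:**
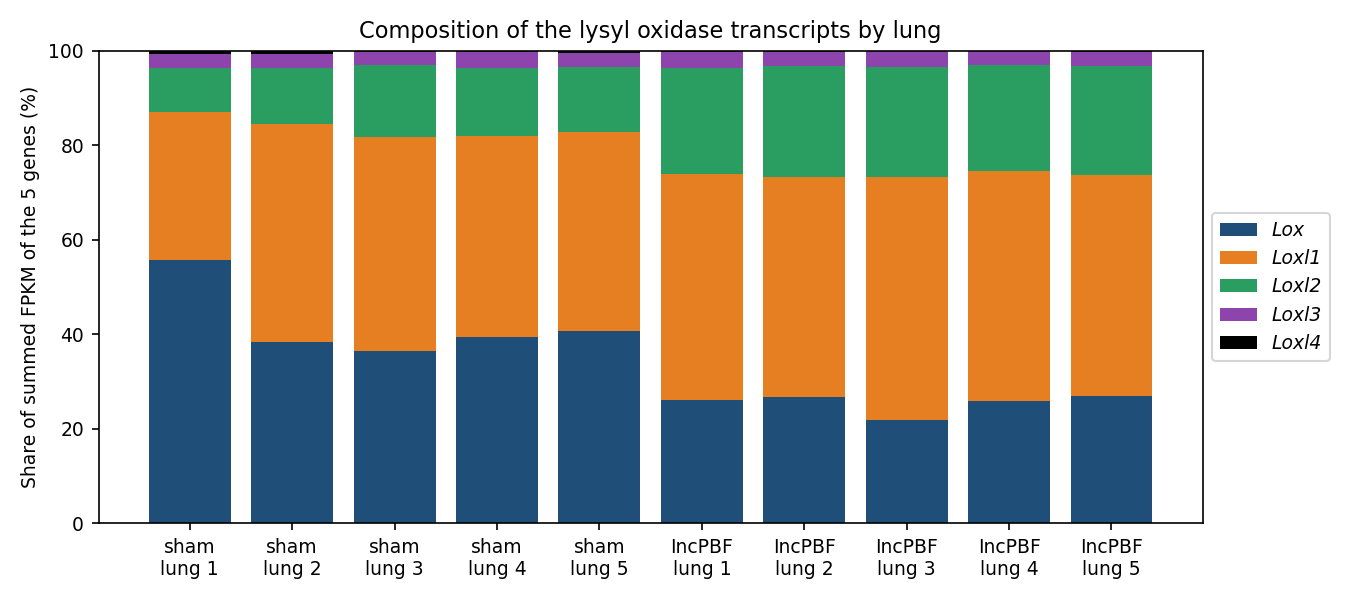
Share of each of the 5 genes in their summed FPKM (vertical axis, percent) in each of the 5 sham and 5 IncPBF lungs. Lox takes 36.5 to 55.7% of the bar in the sham lungs and 21.8 to 26.98% in the IncPBF lungs, while Loxl2 goes from 9.50 to 15.1% up to 22.5 to 23.4%.

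Because 4 of the 5 IncPBF lungs differed from the sham lungs in Xist, each change was also estimated with log2 Xist as a covariate. No member then had an adjusted p under 0.05 (0 of 5, against 4.82% of all genes), and 3 of 5 (Lox, Loxl2 and Loxl3) had an unadjusted p under 0.05, against 20.6% of all genes. The estimates kept their direction. Loxl2 was 0.89 higher (standard error 0.23, adjusted p = 0.0603 in limma), Lox was -0.55 (standard error 0.17, adjusted p = 0.102) and Loxl3 0.31 (standard error 0.11, adjusted p = 0.133), all on the log2 scale. Loxl4 was -0.95 (standard error 0.45, adjusted p = 0.263) and Loxl1 0.31 (standard error 0.22, adjusted p = 0.456). The estimate of Lox was larger in size than without the covariate (-0.55 against -0.40), and that of Loxl4 was nearly the same (-0.95 against -0.94). Those of Loxl1, Loxl2 and Loxl3 were smaller. In this fit the groups are compared almost only through IncPBF lung 1, so its errors are wide.

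IncPBF lung 1 itself lay outside the sham range for 5 of 5 members, in the direction of the other IncPBF lungs. It was above every sham lung for Loxl1, Loxl2 and Loxl3, as it was for 26.4% of all genes tested, and below every sham lung for Lox and Loxl4, as for 25.4%. Against the 5 sham lungs alone, with this single lung assumed to vary as they do, the log2 differences were -0.57 for Lox, 0.32 for Loxl1, 0.90 for Loxl2, 0.31 for Loxl3 and -1.01 for Loxl4, with adjusted p values from 0.188 to 0.587 in limma. In that fit 0 of 5 members had an adjusted p under 0.05, against 1% of all genes, and 3 of 5 (Lox, Loxl2 and Loxl3) had an unadjusted p under 0.05, against 16.6%. Without this lung, the other 4 against the 5 sham lungs gave -0.35 for Lox, 0.60 for Loxl1, 1.21 for Loxl2, 0.44 for Loxl3 and -0.92 for Loxl4, with adjusted p values from 0.000399 to 0.0329 in limma. Within the lungs of low Xist, the comparison thus rests on 1 lung, and the part of sex-linked expression in the group difference cannot be told apart from that of the fistula in the other 4.

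**Figure D3:**
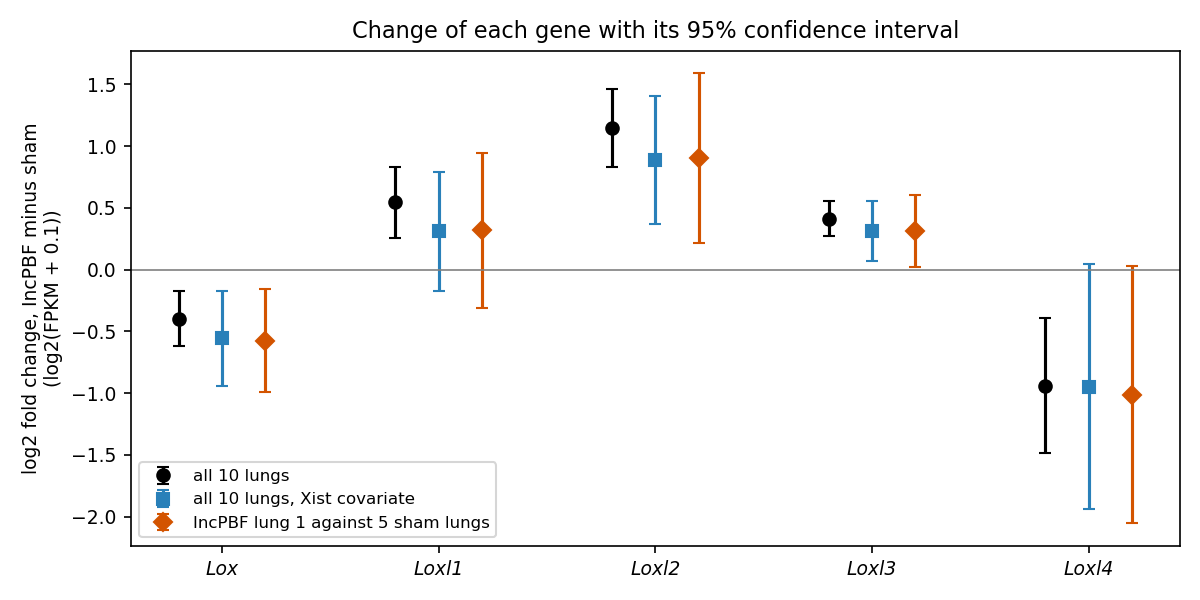
Log2 fold change of each gene, IncPBF minus sham, on log2(FPKM + 0.1) (vertical axis), with its 95% interval as bars, for all 10 lungs (black circles), for all 10 lungs with log2 Xist as a covariate (blue squares), and for IncPBF lung 1 against the 5 sham lungs (orange diamonds). Each gene keeps its side of 0 in all 3 fits, while the intervals of Loxl1 and Loxl4 reach across 0 in the latter 2.

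The RNA levels of the enzymes were set against those of their substrates within each lung, which does not depend on how a lung was scaled. Lox per elastin (Eln) was 0.0402 to 0.0782 in the sham lungs and 0.0297 to 0.0375 in the IncPBF lungs, a log2 difference of -0.58 (adjusted p = 0.00952, exact permutation test, adjusted over 6 ratios). Loxl1 per Eln was 0.0440 to 0.0564 and 0.0545 to 0.0772, a log2 difference of 0.36 (adjusted p = 0.0238, exact permutation test), with IncPBF lung 1 inside the sham range. Relative to Eln RNA, Lox and Loxl1 RNA thus moved in opposite directions, as their levels did. Eln itself did not pass the test (adjusted p = 0.271 in limma), and enzyme or elastin protein was not measured in these data. Loxl1 per Lox went from 0.562 to 1.25 in the sham lungs to 1.73 to 2.36 in the IncPBF lungs. The log2 difference was 0.94 (adjusted p = 0.00952, exact permutation test). Every IncPBF lung was already above every sham lung for Loxl1 and below every sham lung for Lox. The groups of this ratio therefore could not overlap, and its p-value is no further result.

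For the collagens, Lox per Col1a1, the main chain of collagen I, was 0.316 to 0.531 in the sham lungs and 0.204 to 0.279 in the IncPBF lungs (log2 difference -0.75). Loxl2 per Col1a1 was 0.0906 to 0.143 and 0.178 to 0.238 (log2 difference 0.80). Loxl2 per Col4a1, a basement membrane chain, changed most of the 6 ratios, from 0.0322 to 0.0775 in the sham lungs to 0.12 to 0.157 in the IncPBF lungs, a log2 difference of 1.46 or 2.74-fold. Each of these 3 collagen ratios had an adjusted p of 0.00952 in the exact permutation test, and their groups did not overlap. None of the 6 ratios was estimated with log2 Xist as a covariate, so sex-linked expression and group are not separated in them.

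**Figure D4:**
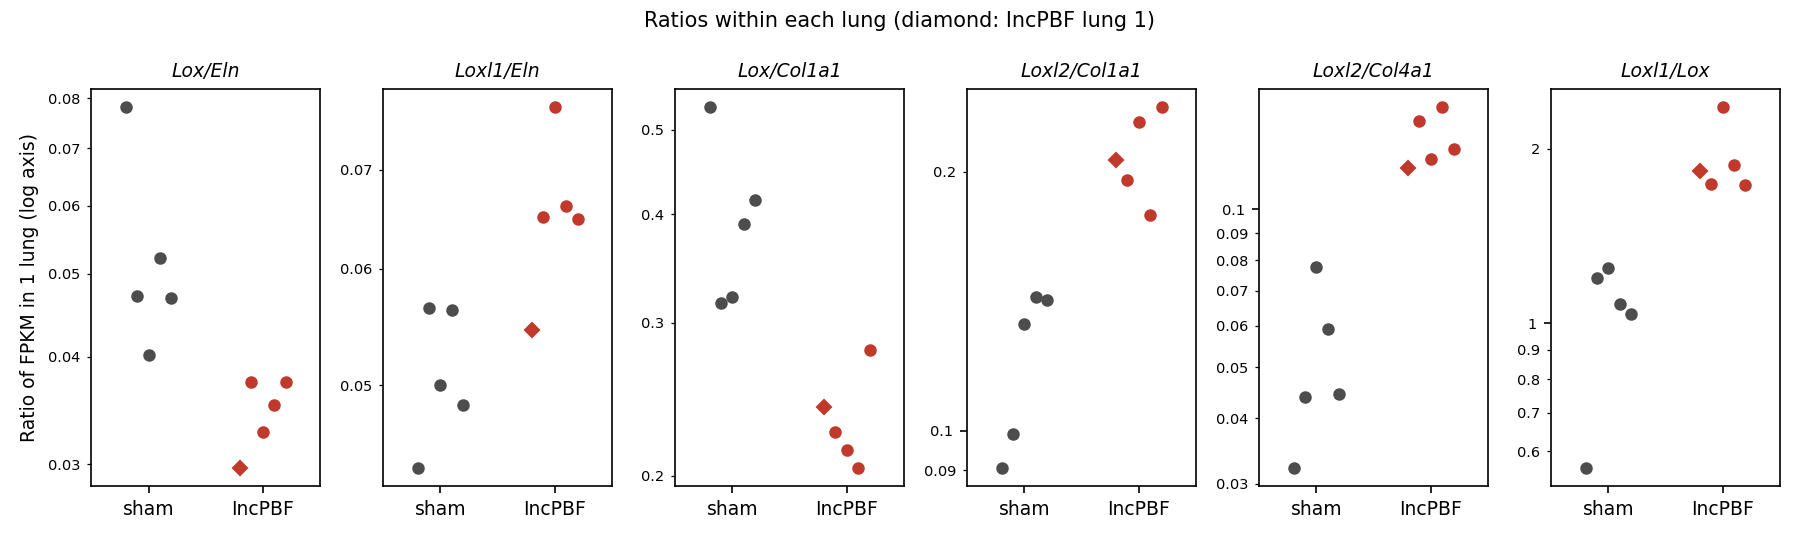
Ratio of 2 FPKM values within each lung (vertical axes, log scale, 1 scale per panel) for 5 sham lungs (gray) and 5 IncPBF lungs (red, with lung 1 as a diamond). In 5 of the 6 panels the groups do not overlap, and in the Loxl1/Eln panel IncPBF lung 1, at 0.0545, lies among the sham lungs.

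The genes around the family were taken from 8 lists of 77 genes by role. Of these, 72 were tested and 43 changed (59.7%, against 32.3% of all genes tested). The lists were written with earlier results of these data known, so this share is a description and no sign of enrichment. Over all genes tested, 16.1% were higher and 16.2% lower, beside which the counts of each list stand. Among elastin and the fibrillar collagens, 6 of 9 tested genes rose and 0 fell, with a median log2 fold change of 0.32. Col24a1 rose by 1.73, Col27a1 by 0.58 and Col5a1 by 0.39 on the log2 scale (adjusted p = 0.000273, 0.00226 and 0.00441 in limma). Col1a1 was 291 ± 43.6 against 228 ± 29.5 FPKM in the sham group (adjusted p = 0.0392) and Col1a2 192 ± 17.7 against 154 ± 12.7 FPKM (adjusted p = 0.010). The most abundant substrate, Eln, was 1939 ± 91.2 FPKM against 1721 ± 279 FPKM and did not pass the test (adjusted p = 0.271 in limma), nor did Col3a1 (log2 fold change -0.10).

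Collagen IV went the other way, with 0 of 6 chains higher and 5 lower and a median of -0.56. Col4a5 fell by 0.90, Col4a3 by 0.72 and Col4a4 by 0.66 on the log2 scale (adjusted p = 0.00228, 0.00805 and 0.00757 in limma). Col4a1 was 446 ± 42.6 FPKM against 556 ± 95.2 FPKM, with an adjusted p of 0.0733. In the fit without a covariate, the rise of Loxl2 thus stood beside lower levels of this substrate and higher levels of several fibrillar chains. With log2 Xist as a covariate, 0 of 6 collagen IV chains had an adjusted p under 0.05 in limma, against 4.82% of all genes, nor did Loxl2. Of the fibrillar list, Col24a1 alone did.

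Of 16 genes of microfibril and elastic fiber assembly, 7 rose and 2 fell (median 0.24). Fbn2, the fibrillin of developing tissue, rose from 1.75 ± 0.286 to 5.42 ± 0.320 FPKM, with a log2 fold change of 1.59 (adjusted p = 6.68e-06 in limma). Efemp2, the fibulin-4 gene, whose protein binds Lox and brings it to elastin, rose by 0.56, and Fbln5, the fibulin-5 gene, whose protein binds Loxl1, rose from 64.6 ± 8.41 to 87.4 ± 3.8 FPKM. Ltbp2 rose by 0.70, while Ltbp4, which guides fibulin-5 onto microfibrils, fell by 0.47 and Efemp1 by 0.73 on the log2 scale. Mfap4, the most abundant gene of the list, was 2145 ± 55.6 FPKM against 2368 ± 353 FPKM and did not pass the test.

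The proteins that activate lysyl oxidases did not move as 1 group. Of the 7 tested genes for propeptide processing and matrix partners, 2 rose and 4 fell (median -0.23). Bmp1, the protease that cuts the propeptides of Lox and procollagen, rose from 18.8 ± 2.31 to 26.7 ± 3.14 FPKM, and Postn, a matrix protein that brings Bmp1 to fibronectin, rose by 0.25 on the log2 scale. Its sister protease Tll1 fell by 0.63, fibronectin (Fn1) by 0.35 and the enhancers Pcolce2 and Pcolce by 0.85 and 0.23. The adjusted p values of these 6 genes ran from 0.000161 to 0.0398 in limma.

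Lysines of collagen are hydroxylated and glycosylated before lysyl oxidase acts on them, and among 11 such genes 2 rose and 3 fell (median -0.01). Over all genes tested, 16.1% rose and 16.2% fell. Fkbp10, a partner of the lysyl hydroxylases, rose from 28.5 ± 3.77 to 43.4 ± 2.25 FPKM, and P3h3 rose by 0.23 on the log2 scale. Plod1, a lysyl hydroxylase, fell by 0.33 and Colgalt2, a galactosyltransferase, by 0.61. Tgm2, a transglutaminase that cross-links matrix proteins without lysyl oxidase, had the largest change of the list, from 98.3 ± 19.2 to 39.0 ± 4.73 FPKM (log2 fold change -1.31, adjusted p = 4.99e-05 in limma).

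Copper reaches lysyl oxidases through plasma membrane uptake and loading in the secretory pathway. In this list 0 of 11 genes rose and 5 fell (median -0.31), beside 16.1% and 16.2% of all genes. The uptake transporter Slc31a1 fell from 26.3 ± 1.62 to 19.1 ± 1.36 FPKM (adjusted p = 0.000315 in limma), the copper pump Atp7b from 9.23 ± 1.83 to 3.54 ± 0.629 FPKM (adjusted p = 8.67e-05) and the metalloreductase Steap3 from 4.38 ± 0.838 to 2.07 ± 0.184 FPKM (adjusted p = 0.000257). Atp7a, the pump that loads lysyl oxidases in most tissues, was 5.71 ± 0.807 FPKM against 7.40 ± 2.02 FPKM and did not pass the test (adjusted p = 0.140). The carrier Atox1 did not pass either (log2 fold change 0.19). The summed level of the list was 156 to 162 FPKM in the IncPBF lungs against 172 to 184 FPKM for sham, without overlap.

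Amine oxidases outside the family moved little as a list (median -0.11). Of 4 tested genes 1 was higher and 0 lower (16.1% and 16.2% of all genes were). Aoc3, the vascular amine oxidase of smooth muscle and endothelium, was that gene, at 8.30 ± 1.25 FPKM against 4.54 ± 1.23 FPKM. Among the 8 genes of transforming growth factor beta and hypoxia signaling, known inducers of lysyl oxidase transcription, 3 rose and 3 fell (median -0.12). Tgfb2 rose from 14.5 ± 1.33 to 32.7 ± 1.68 FPKM and Tgfb3 from 22.9 ± 4.30 to 48.7 ± 2.05 FPKM (adjusted p = 3.05e-06 and 8.99e-05 in limma), while Tgfb1 did not pass the test (log2 fold change -0.18). The receptors Tgfbr1 and Tgfbr2 fell by 0.24 and 0.34 on the log2 scale. Of the hypoxia factors, Hif1a rose by 0.25 and Epas1 fell by 0.69.

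With log2 Xist as a covariate, 10 of the 72 genes kept an adjusted p under 0.05 (13.9%, against 4.82% of all genes in that fit). They were Col24a1, Fbn2, Emilin2, Tgfb2 and Tgfb3, which stayed higher, and Pcolce2, Tgm2, Atp7b, Steap3 and Epas1, which stayed lower. Among them Tgfb2 was 1.08 and Fbn2 1.56 higher, and Tgm2 -1.35 and Atp7b -1.20, on the log2 scale. The share of 13.9% is a description too, since the lists were written with earlier results of these data known.

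**Figure D5:**
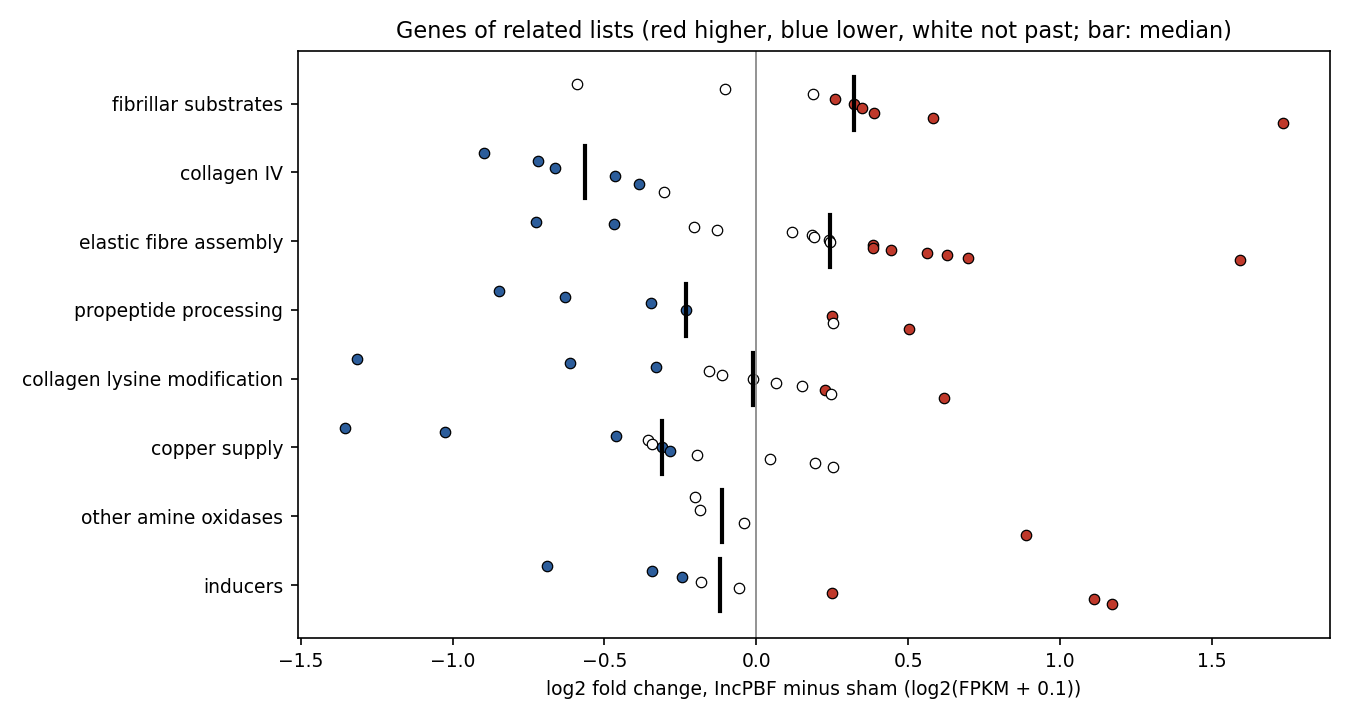
Log2 fold change of each tested gene, IncPBF minus sham, on log2(FPKM + 0.1) (horizontal axis) in 8 lists of genes around the family (vertical axis), filled red or blue where the adjusted p was under 0.05 and the gene was higher or lower, white otherwise, with the median of each list as a bar. The fibrillar substrates have a median of 0.32 and the collagen IV chains one of -0.56.

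Of 52 tested markers of the cells that a lung sample can hold, 7 were higher and 15 lower (16.1% and 16.2% of all genes were). Of 7 smooth muscle and myofibroblast markers, 4 rose and 0 fell, Acta2, Myh11, Actg2 and Des, and their summed level was 439 to 803 FPKM in the IncPBF lungs against 238 to 430 FPKM in the sham lungs. Of 8 fibroblast markers 2 rose and 2 fell, with sums of 460 to 530 FPKM against 417 to 482 FPKM. Among them Pdgfra, which marks fibroblasts of the alveolar septa, fell from 58.1 ± 12.4 to 22.4 ± 3.42 FPKM and Col13a1 fell by 0.27 on the log2 scale, while Dpt rose from 239 ± 22.5 to 331 ± 19.8 FPKM and Col14a1 rose by 0.38. The other 4, with Tcf21 at a log2 fold change of -0.03, did not pass the test. The 5 alveolar type 1 markers all fell, 864 to 904 FPKM in sum against 1094 to 1428 FPKM, and 2 of 4 alveolar type 2 and 2 of 4 endothelial markers fell. Of pericyte markers 1 of 5 rose and 1 fell, close to the share over all genes. With log2 Xist as a covariate, 1 of the 52 tested markers passed the test, a share of 1.92% against 4.82% of all genes.

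All 3 tested mesothelial markers fell, with sums of 19.5 to 43.4 FPKM against 38.5 to 98.0 FPKM. In the macrophage, lymphocyte, airway epithelial and cardiac muscle lists 0 of 4 tested markers each passed the test. The markers of cartilage, another matrix-forming tissue that lung samples can hold, summed to at most 0.366 FPKM in the IncPBF lungs against 0.507 FPKM for sham, with Matn1 at 0 in every IncPBF lung. The part of the cell makeup in the changes of the lysyl oxidases was not tested.

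Within the groups the members did not vary as 1 unit. After the group means were taken out, Loxl1 and Loxl2 had a Pearson correlation of 0.889 over the 10 lungs (Spearman 0.503), Loxl1 and Loxl3 one of 0.747 (0.624), and Loxl2 and Loxl3 one of 0.683 (0.394). Much of this lay in sham lung 1, without which the values were 0.620, 0.437 and 0.288 over 9 lungs. Lox and Loxl4 had a correlation of 0.703 (Spearman 0.721), and 0.604 without that lung. Lox and Loxl1 had one of -0.468, which turned to 0.291 without sham lung 1. The lungs share 1 library preparation scheme and the values of a lung share its scaling, so these correlations are descriptions only.

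For each member the 3 most similar of 8188 genes with a mean of at least 5 FPKM were found by the same correlation over 10 lungs. They were Tbc1d8b (0.957), Akr1c14 (0.919) and Ankib1 (0.919) for Lox, and Angptl2 (0.974), Mif (0.972) and Rem1 (0.971) for Loxl1. For Loxl2 they were Trabd2b (0.956), Tnc (0.950), which encodes the matrix protein tenascin C, and Pamr1 (0.948). For Loxl3 they were Zbtb22 (0.952), Rae1 (0.921) and Trp53 (0.920), and for Loxl4 Agfg1 (0.982), Asb1 (0.981) and Sema3e (0.971). The Spearman values of these genes ran from 0.721 (Trabd2b) to 0.988 (Agfg1), with sham lung 1 among the lungs used. As the highest of 8188 values, the correlations are descriptions only. All 3 genes nearest to Loxl1 and all 3 nearest to Loxl2 were also higher in the IncPBF group, as 16.1% of all genes tested were. The nearest genes were chosen from these same lungs by a correlation that sham lung 1 enters. Their group differences are therefore descriptions only. Tnc rose by 2.19 on the log2 scale (adjusted p = 5.47e-05 in limma). Of the 3 nearest to Lox only Akr1c14 was lower (log2 fold change -1.21), as 16.2% of all genes were. Of the 3 nearest to Loxl3 only Trp53 was higher (0.34), and of the 3 nearest to Loxl4 only Agfg1 was lower (-0.21), with the others not past the test.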

How the data were processed

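Lungs of 5 IncPBF and 5 sham mice were profiled by bulk RNA-sequencing. The authors deposited 1 table with FPKM and the gene length in bases for each gene. The submitters' processing notes name Bowtie 0.12.2 and the builds GRCm38, mm10 and hg38 without a role, and the counting software and strand setting are not given in the sources used here. Of 54409 genes shared with GENCODE M21 on GRCm38, 98.26% had the same coordinates. The labels and the methods differ in how RNA was extracted and how long the puncture was compressed. The names of the IncPBF columns are not those of the titles, and they were matched by the volume overload of the design text and by number. No sample column was left unmatched.

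FPKM times length gave whole fragments for 100% of values (tolerance 0.1 fragments), and 1 fragment on 1 kb was 0.0482 to 0.0580 FPKM. No molecular identifiers are mentioned in the sources, so fragment numbers cover counting error only. The 15388 genes averaging 0.5 FPKM or more entered limma 3.58.1 (lmFit, eBayes with trend, R 4.3.3) as log2(FPKM + 0.1), with Benjamini-Hochberg adjustment over all of them and a threshold of 0.05. Single values and within-lung ratios were compared by exact two-sided permutation. The test was first tested on simulated data. Tables and figures were made with Python 3.11.15, pandas 2.3.3, scipy 1.17.1 and matplotlib 3.10.9. The members and the gene lists were chosen with earlier results of these data known.

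Genes named are the 5 members, up to 5 genes of each list with the smallest adjusted p among those past the threshold, up to 3 further ones of the highest level, the 3 genes most like each member, and marker genes with their list. Emilin2 falls outside this rule and was named after its values were seen, as 1 of the genes past the threshold with Xist as a covariate. The alternatives tried were a pseudocount of 1 or 0.01, a filter at a mean of 1 FPKM or no filter, the scaling (equal total, median centring, quantile), the replicate block, no trend, limma-voom on the recovered fragments, log2 Xist as a covariate, no genes of chromosomes X and Y, and each lung left out. IncPBF lung 1 against the sham lungs was added after the data were seen. The labels do not say that the replicate numbers pair the lungs. The correlations of the deviations of lungs with the same number ran from -0.0675 to 0.0854, which cannot exclude a pairing.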

Additional observations from a re-analysis of the deposited data

Results flagged for a closer look

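Among 22 groups of 5 lungs that were checked for a lung far from the other 4, 4 had such a lung, where chance alone gives about 5% of groups. Loxl2 in IncPBF lung 1 was 50.7 FPKM, while the other IncPBF lungs were 61.6 to 64.2 FPKM. Loxl3 in sham lung 1 was 5.46 FPKM, below the 6.18 to 6.36 FPKM of the other sham lungs. The log2 ratio of Loxl1 to Lox was 1.24 in IncPBF lung 3, above the 0.79 to 0.91 of the other IncPBF lungs. The same log2 ratio was -0.83 in sham lung 1, below the 0.05 to 0.32 of the other sham lungs. The same fragments enter several of these values, and IncPBF lung 1 is also the IncPBF lung with sham-like Xist.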

How the results depend on the processing

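No log2 fold change of a member changed direction under the alternatives run. The log2 ratios kept theirs with each lung left out and with a pseudocount of 0.1, the only alternatives run for them. They were not estimated with log2 Xist as a covariate. Among the correlations between members, 3 turned sign without sham lung 1, from -0.468 to 0.291 for Lox and Loxl1, from -0.378 to 0.466 for Lox and Loxl2 and from -0.279 to 0.0450 for Loxl3 and Loxl4. The count of members past the threshold went from 5 to 0 with log2 Xist as a covariate, and to 0 for IncPBF lung 1 against the sham lungs (against 1% of all genes in that fit, with 3 members at an unadjusted p under 0.05), and the related genes past it went from 43 to 10 with the Xist covariate. With each lung left out, all 5 members stayed past the threshold, with log2 fold changes of -0.44 to -0.32 for Lox, 0.42 to 0.61 for Loxl1, 1.01 to 1.23 for Loxl2, 0.37 to 0.44 for Loxl3 and -1.07 to -0.83 for Loxl4 (highest adjusted p = 0.0400 in limma, for Loxl4). Under the other settings apart from Xist, adjusted p values were at most 0.0331, and a filter at a mean FPKM of 1 left 4 members tested, since Loxl4 is under it. With a pseudocount of 1 the log2 fold change of Loxl4 was -0.46. With the replicate block 5 members were past the threshold, Lox with the highest adjusted p (0.0331), and the block changed no call of a member. Whether the numbers pair the lungs is not given, and 2 of 5 IncPBF lungs were most like the sham lung of their number. The related genes past the threshold numbered 37 to 48 under the scalings, limma-voom and without IncPBF lung 1 or sham lung 5. Depth limits Loxl4 most (28 to 111 fragments). An equal total per lung moved the median of all genes to 0.09 on the log2 scale, less than any member's change.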
